A study of Mus musculus with 7 samples.

Results

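The genes described here encode 40 proteins of the cytosolic ribosome, 25 of the large subunit (Rpl genes) and 15 of the small subunit (Rps genes), out of 22367 protein-coding genes of the GENCODE mouse annotation M1 on mm9 (chromosomes 1 to 19, X and Y). They were given as a list of gene names that states no measured value, though the list was drawn up with earlier results of these data known. A peak was assigned to a gene when its centre lay within 5 kb of any annotated transcription start site (TSS) of that gene, so a peak between neighbouring genes can count for both. PU.1 and MITF were precipitated with antibodies made by the submitters' laboratory from bone marrow myeloid cells of C57BLACK6 mice aged 4 to 6 weeks, and the recovered DNA was sequenced (ChIP-Seq). Myeloid precursors (MP) had grown for 3 days with CSF1, a growth factor of macrophages and their precursors, at 50 ng per mL. The 36 h cells and the osteoclasts (OC) were MPs treated with CSF1 and 100 ng per mL RANKL, the cytokine that drives osteoclast formation, for 36 h and 72 h. A control library was made from MPs with affinity-purified pre-immune IgG. There were 7 libraries, 1 for each factor and stage, so no difference between stages has a replicate check. How many mice gave each library is not given in the sources used here.

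A ribosome translates mRNA into protein, and each of its subunits is a complex of ribosomal RNA and many small proteins that are needed in matched amounts. Ribosomal protein genes are active in every growing cell, and their promoters often carry sites for ETS-family factors such as GABPA. PU.1 is itself an ETS factor, restricted to blood cells and needed for the macrophage and osteoclast lineage, and it prefers a purine-rich site with the core GAGGAA. MITF, a basic helix-loop-helix factor that works with PU.1 in osteoclasts, binds E-boxes such as CACGTG and CATGTG.

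The PU.1 lists held 76243 peaks in MP, 71941 at 36 h and 77072 in OC, and the MITF lists 5413, 3540 and 4443. The IgG list held 349. The Peak Score is the number of sequenced tags in a peak scaled to a common library size, and 1 tag was worth between 0.973 (MITF 36 h) and 1.71 (PU.1 MP) score units in the PU.1 and MITF lists. The lowest PU.1 peak held 6 tags in MP and 7 tags at 36 h and in OC, and a site with fewer tags cannot appear in a list. PU.1 peaks were 190 bp wide at 36 h and 150 bp wide in MP and OC (medians), and MITF peaks reached 1387 bp at 36 h against 150 bp at the other stages, so scores at 36 h were not counted over the same width. All 14 myeloid marker genes examined had a PU.1 peak in the 3 lists, with a median highest score of 131.3 in MP. Of 21 genes that mark T, B, erythroid, megakaryocyte or bone-forming cells, 10 had one in MP (47.6%), beside 54.3% of all protein-coding genes. The median highest score of these 10 was 21.35, and Pf4 (185.9), Cd4 (163.8) and Gata1 (68.2) stood highest among them.

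Nearly all ribosomal protein genes carried PU.1. Few carried MITF, which was also at few of all protein-coding genes (6.58% in MP, 4.28% at 36 h and 5.2% in OC). A PU.1 peak lay within 5 kb of a TSS of 38 of the 40 genes in MP, where 54.3% of all protein-coding genes had one. At 36 h 37 of the 40 genes had a PU.1 peak, beside 55% of all genes. In OC the count was again 38, beside 55.4% of all genes. No member lacked a PU.1 peak in all 3 lists, and 35 of the 40 had one in each list, which was true of 48.4% of all protein-coding genes. Both subunits were alike in this count, with 24 of 25 Rpl genes and 14 of 15 Rps genes in MP. The IgG list had a peak at 0 of the 40 genes, beside 0.179% of all genes.

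The share was also higher among the members at the TSS itself. Within 100 bp of a TSS a PU.1 peak was found at 25 of the 40 genes in MP (62.5%), beside 13.7% of all genes. The same count was 23 at 36 h (57.5%), beside 15.2%. In OC it was 24 (60%), beside 15.8%. Of the 40 genes, 19 had such a peak in each of the 3 lists (47.5%, against 10.3% of all genes) and 11 in none (27.5%, against 80%). The median distance from the TSS to the nearest PU.1 peak, over the genes with a peak within 5 kb, was 53.5 bp in MP, 64 bp at 36 h and 44.5 bp in OC, against 486, 396.5 and 374 bp over all genes. The members had a median of 4 annotated TSSs and all protein-coding genes 2, which gives the members more windows. With only the most upstream TSS of each gene, 21 members had a PU.1 peak within 100 bp in MP (52.5%, against 9.53% of all genes), 18 at 36 h (45%, against 10.8%) and 18 in OC (45%, against 11.3%). Expression was not part of these files, so the members were not set against genes of like expression.

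**Figure D1:**
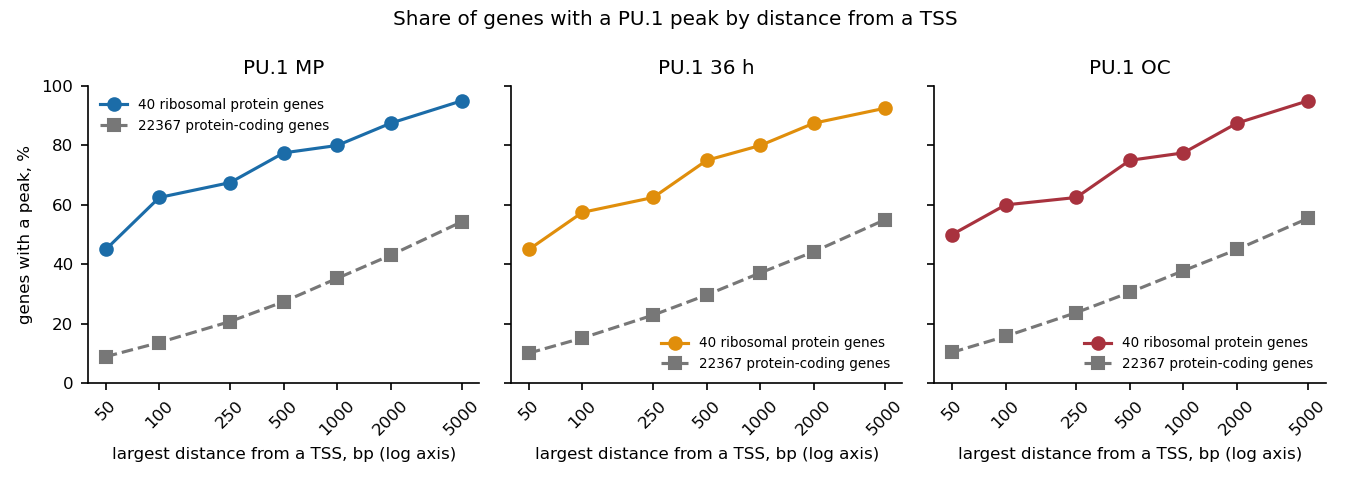
Share of genes with a PU.1 peak (vertical axis, %) against the largest distance allowed between the peak centre and a TSS (horizontal axis, bp, log scale) in the MP, 36 h and OC lists. Filled circles are the 40 ribosomal protein genes and grey squares all 22367 protein-coding genes. In MP the members go from 45% at 50 bp to 95% at 5000 bp and all genes from 8.94% to 54.3%.

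The peaks were frequent at these genes, but within 5 kb the median highest score was below that of all genes. Within 1 kb the order was the other way, with 27.3 in MP, 29.6 at 36 h and 27.9 in OC, against 25.6, 25.1 and 26.4. Over the genes with a peak within 5 kb, the median of the highest PU.1 score was 27.3 in MP, 31 at 36 h and 28.65 in OC, against 34.1, 32.5 and 35.2 over all protein-coding genes. For the peaks within 100 bp of a TSS the median score of the members was 25.6 in MP, against 22.2 over all genes. At 36 h it was 29.6, against 23.7, and in OC 24.25, against 23.5. The highest scores of the members spread from 11.9 to 247.3 in MP, and for the highest-ranked members the top peak was mostly not at the TSS. Of the members with a peak in MP, the highest one lay within 100 bp of a TSS at 14.

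**Figure D2:**
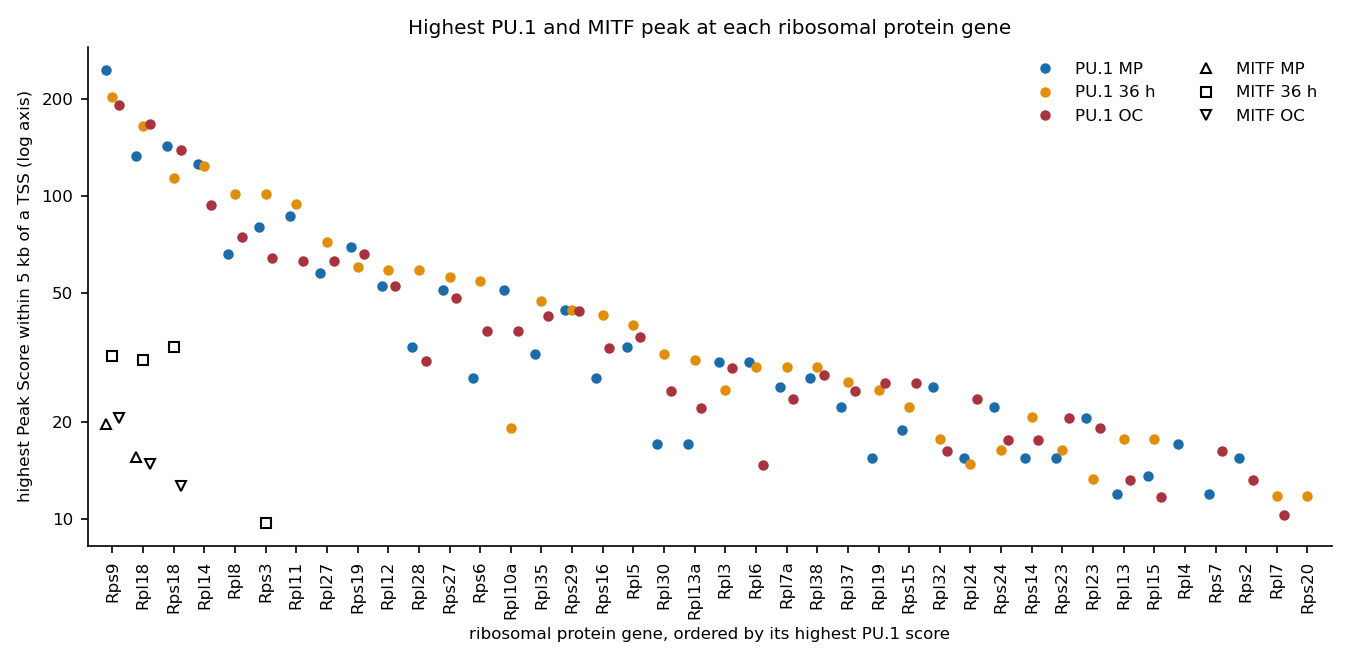
Highest Peak Score within 5 kb of a TSS (vertical axis, log scale) for each of the 40 ribosomal protein genes (horizontal axis), ordered by the highest PU.1 score. Filled circles are the PU.1 lists, open symbols the MITF lists, and a missing symbol means no peak in that list. Rps9, Rpl18 and Rps18 have PU.1 scores of 113.8 or more in each list and are, with Rps3, the genes with a MITF peak.

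The genes with the 10 highest scores, 11 because Rpl12 and Rpl28 tied, include 8 whose highest MP peak lay more than 100 bp from a TSS. The sequences of 5 of these 8 peaks are shown as examples of strong PU.1 peaks away from the TSS. They are read along the strand of the gene from the positions of the MP list, and capitals mark the hexamers searched for on either strand, which were GAGGAA for PU.1, CCGGAA for other ETS factors and both E-boxes named before (on the other strand GAGGAA reads TTCCTC).
Rps9, whole peak (mm9, chr7:3658745-3658895, plus strand): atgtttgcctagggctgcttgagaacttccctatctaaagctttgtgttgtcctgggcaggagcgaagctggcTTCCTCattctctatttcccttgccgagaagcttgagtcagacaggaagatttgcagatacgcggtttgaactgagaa
Rps18, whole peak (mm9, chr17:34084464-34084614, minus strand): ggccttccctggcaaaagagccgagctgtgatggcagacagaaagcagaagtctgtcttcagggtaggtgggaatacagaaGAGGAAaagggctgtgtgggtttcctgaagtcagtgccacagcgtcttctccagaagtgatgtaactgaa
Rpl11, whole peak (mm9, chr4:135584070-135584220, minus strand): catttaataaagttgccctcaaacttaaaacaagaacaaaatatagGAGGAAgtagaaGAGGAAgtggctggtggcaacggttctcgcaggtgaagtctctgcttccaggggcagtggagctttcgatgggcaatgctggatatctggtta
Rpl8, whole peak (mm9, chr15:76736290-76736440, plus strand): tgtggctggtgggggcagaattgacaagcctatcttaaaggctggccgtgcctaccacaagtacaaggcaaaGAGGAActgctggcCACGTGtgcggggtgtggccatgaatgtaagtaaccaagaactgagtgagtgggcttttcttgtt
Rpl14, whole peak (mm9, chr9:120480173-120480323, plus strand): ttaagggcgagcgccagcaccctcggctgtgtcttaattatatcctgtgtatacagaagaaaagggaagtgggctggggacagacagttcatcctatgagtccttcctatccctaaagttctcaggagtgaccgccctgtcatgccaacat
The GAGGAA hexamer occurs in the peaks of Rps9 and Rps18, at 2 neighbouring places in that of Rpl11, and beside a CACGTG E-box in that of Rpl8. None of the 4 hexamers occurs in the peak of Rpl14, which says only that these letters are not in this window. The peaks of Rpl18, Rpl27 and Rpl12, not printed, hold none of them within 100 bp of the centre either, so GAGGAA was found in 4 of the 8.

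Rps9, which encodes a small-subunit protein near the mRNA entry channel, had the highest PU.1 peak of the list. Its score was 247.3 in MP, 204 at 36 h and 192.4 in OC, and in MP it stood above 99.4% of all PU.1 peaks of the library. The peak lay 1602 bp beyond the nearest annotated Rps9 TSS and outside the gene body, 3225 bp from the most upstream TSS. A MITF peak overlapped it in each list, with scores of 19.7 in MP, 32.1 at 36 h and 20.6 in OC. A further PU.1 peak 663 bp upstream of the gene scored 88.7, 57.6 and 72. No PU.1 peak lay within 100 bp of an Rps9 TSS in any list.

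Rpl18, a large-subunit protein, had PU.1 scores of 133.1 in MP, 165.6 at 36 h and 167.4 in OC at a peak within an annotated exon, 812 bp from the TSS in the MP list. MITF overlapped this peak in each list as well, with 15.6 in MP, 31.1 at 36 h and 14.8 in OC. Another PU.1 peak of the gene, with scores of 58, 72.4 and 63.1, was nearer to a TSS of the neighbouring gene Sphk2. The peak at the Rpl18 TSS itself, 25.6 in MP, was present in that list only.

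Rps18 combined a TSS peak and a distant one. The distant PU.1 peak, 4947 bp from the nearest Rps18 TSS in MP, scored 143.3, 113.8 and 139.5 and was nearer to a TSS of B3galt4 (3894 bp) than to one of Rps18. MITF was absent from this site in the MP list, scored 34.1 at 36 h and 12.6 in OC. The PU.1 peak at the TSS, 15 bp from it in MP, scored 34.1 in MP, 63.6 at 36 h and 30.8 in OC. This distant peak was one of the outermost that the 5 kb window admitted.

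Rps3, a small-subunit protein at the mRNA entry site that also has roles in DNA repair, had the highest PU.1 score of any member peak within 100 bp of a TSS in MP. The scores were 80.2 in MP, 102 at 36 h and 64.6 in OC, at 39 bp upstream of the TSS in the MP list. It was also the only member with a MITF peak within 100 bp of a TSS, and that peak was in the 36 h list alone, with 9.7 (10 tags), the lowest score of that list. Rps19, which is mutated in Diamond-Blackfan anaemia, a failure of red cell production, followed with TSS peaks of 69.9, 60.6 and 66.1.

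Among the other high members, Rpl14 had a single PU.1 peak 384 bp upstream of its TSS with scores of 126.2 in MP, 124.2 at 36 h and 94 in OC. Rpl8 had its highest peak 1864 bp into the gene in an exon (66.5, 102 and 74.9) and a lower one 22 bp upstream of its TSS (27.3, 41.4 and 27.9). Rpl11, whose free protein binds and inhibits Mdm2 when ribosome assembly is disturbed, had a peak 2798 bp upstream (83.6, 94.6 and 60.2) and one 568 bp beyond a secondary TSS (87, 51.7 and 63.1). That secondary TSS belongs to a transcript that begins far from the main promoter, and the peak lay 25198 bp from the most upstream Rpl11 TSS. The Rpl11 promoter peak itself was lower, with 18.8, 32.5 and 20.6. Rpl27 scored 39.2, 72.4 and 55.8 at its own TSS, while its other peak (58, 48.8 and 63.1) lay 3 bp from a TSS of Ifi35. Rpl12 had no peak within 100 bp of a TSS, and its highest were at 2272 bp (52.9, 31 and 52.9) and 1138 bp upstream (35.8, 59.1 and 25), the latter nearer to Lrsam1.

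**Figure D3:**
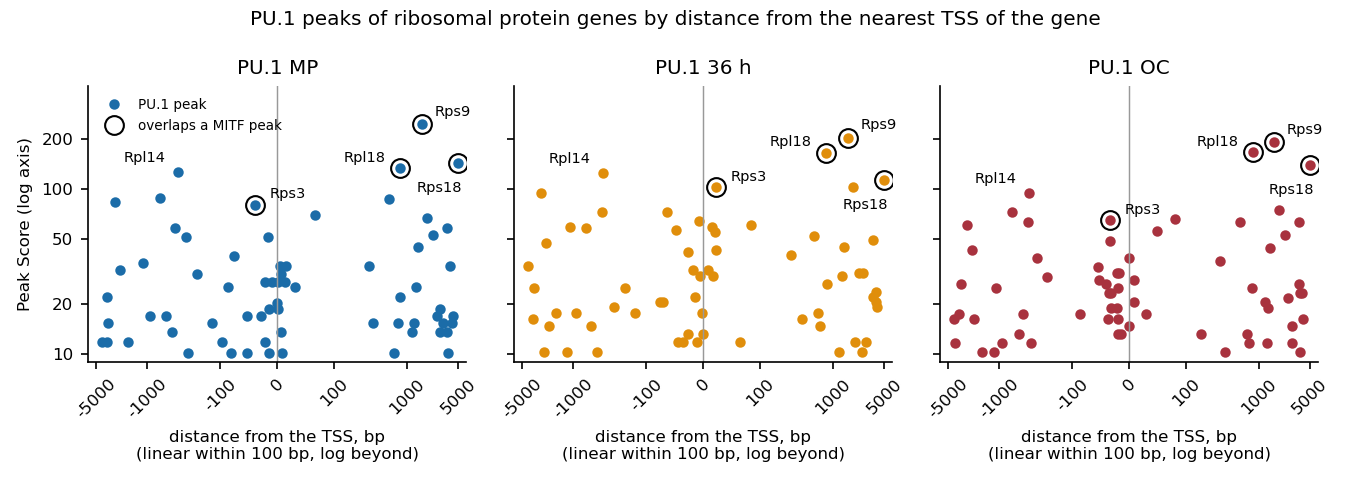
Peak Score (vertical axis, log scale) of each PU.1 peak of the ribosomal protein genes against its signed distance from the nearest TSS of the gene (horizontal axis, bp, negative is upstream, linear within 100 bp and log beyond) in the MP, 36 h and OC lists. Rings mark peaks that overlap a MITF peak of any list. There are 68, 65 and 68 peaks, with 25, 23 and 24 of them within 100 bp of a TSS, and the highest, at Rps9, Rpl18 and Rps18, lie more than 100 bp downstream.

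Beside these, most members had a promoter peak of moderate or low height. Rps27 scored 51.2 in MP, 56.2 at 36 h and 48.5 in OC next to its TSS, but the centre was nearer to a TSS of Rab13 at 36 h (3 bp, against 47 bp to Rps27) and in OC (11 bp, against 33 bp). Rpl28, which tied with Rpl12 at 59.1, scored 34.1, 59.1 and 30.8. Rps16 followed with 27.3, 42.9 and 33.8, and Rpl38, which is needed for the translation of a subset of Hox mRNAs, with 27.3, 29.6 and 27.9. The 3 libraries gave Rps27 and Rpl38 nearly the same heights and Rpl28 and Rps16 their highest value at 36 h. Lower promoter peaks were those of Rps15 (18.8, 22.2 and 26.4), Rpl30 (17.1, 32.5 and 25) and Rpl23 (20.5, 13.3 and 19.1). Rpl13, with 11.8 at 36 h and 13.2 in OC, was near the lowest score of the lists. The TSS peak of Rpl24 in MP (10.2) and those at 36 h and in OC (11.8 and 23.5) lay at different annotated TSSs. Rps14, a gene that is lost with part of a chromosome in a form of myelodysplastic syndrome, had promoter peaks of 15.4, 20.7 and 17.6.

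The 11 members without a PU.1 peak within 100 bp of a TSS in any list were Rpl3, Rpl7a, Rpl10a, Rpl12, Rpl14, Rpl15, Rpl19, Rps9, Rps23, Rps24 and Rps29. They were not the lowest of the list. Rps9 and Rpl14 belong to the 10 genes with the highest PU.1 scores, Rpl12 shares the last of these places with Rpl28, and Rpl10a (51.2, 19.2 and 38.2) and Rpl3 (30.7, 25.1 and 29.4) had their main MP peak 294 and 212 bp upstream. Rps29 had its highest peak 1415 bp from the TSS, with 44.4, 44.3 and 44.1 in the 3 libraries. Rpl15 (13.6, 17.7 and 11.7) and Rps23 (15.4, 16.3 and 20.6) had low peaks only, and the highest peaks of Rpl7a, Rpl19 and Rps24 lay nearer to other genes.

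Many of the distant peaks lay nearer to neighbouring genes. Of the 26 MP peaks more than 1000 bp from a member's TSS, 12 were nearer to a TSS of another protein-coding gene. Examples, with the distance to the TSS of the neighbour in MP, were the peaks counted for Rpl7a (Surf1, 49 bp), Rpl35 (Arpc5l, 54 bp), Rps24 (Polr3a, 13 bp) and Rps2 (Ndufb10, 42 bp). Rpl13a, whose phosphorylated protein can leave the ribosome to silence inflammatory mRNAs in macrophages, had a peak 22 bp from one of its annotated TSSs in MP (11.9) that was 7 bp from a TSS of Flt3l. Within 100 bp of a member's TSS, 1 of 25 MP peaks was nearer to another gene. Counting only peaks whose nearest TSS was the member's own, 34 members had a PU.1 peak in MP, 33 at 36 h and 33 in OC, beside 49.9%, 50.6% and 51.1% of all genes.

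There were 5 members that were not found in every PU.1 list. Their peak scores ran from 10.2 to 17.1, and that of Rpl4, the highest, stood above 32.7% of the MP peaks. Rpl4, which the study used as the reference gene for its RT-qPCR, had a PU.1 peak in MP only, 53 bp upstream of the TSS, with a score of 17.1 from 10 tags (95% Poisson interval of the score 8.18 to 31.4). Rps20 had one at 36 h only, 10 bp upstream, with 11.8 (8 tags, interval 5.11 to 23.3). Rpl7 had its TSS peak, 11.8, at 36 h only and a peak of 10.3 at 36 h and in OC that was nearer to Rdh10. Rps2 (10.2 and 13.2 at its TSS) and Rps7 (11.9 and 16.2) had a peak in MP and OC and none at 36 h. The 3 lists begin at scores of 10.2, 10.3 and 10.3, which lie inside both intervals printed here. The absence of Rpl4 and Rps20 from a list was thus not distinguishable from sampling at this depth. No interval is given for Rpl7, Rps2 and Rps7. The intervals cover counting error only.

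The TSS peaks of these genes held the core site of other ETS factors in a higher share than TSS peaks at large. CCGGAA, the core preferred by many ETS factors other than PU.1, occurred within 100 bp of the centre of 15 of the 25 member TSS peaks in MP (60%), against 28.6% of the 3080 PU.1 peaks within 100 bp of any protein-coding TSS. At 36 h it occurred in 17 of 23 (73.9%, against 31.1%), and in OC in 15 of 24 (62.5%, against 29.5%). The PU.1 core GAGGAA was not more frequent than elsewhere, with 10 of 25 in MP (40%, against 43.4%), 7 of 23 at 36 h (30.4%, against 41%) and 10 of 24 in OC (41.7%, against 42.3%). CACGTG was in 2 of the 25 in MP (8%, against 5.78%) and CATGTG in 1 (4%, against 6.98%). Median G+C content over the same windows was 57.2% in the members and 57.7% in all TSS peaks of MP. These shares are descriptions with no test, and the members share the lists they come from.

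**Figure D4:**
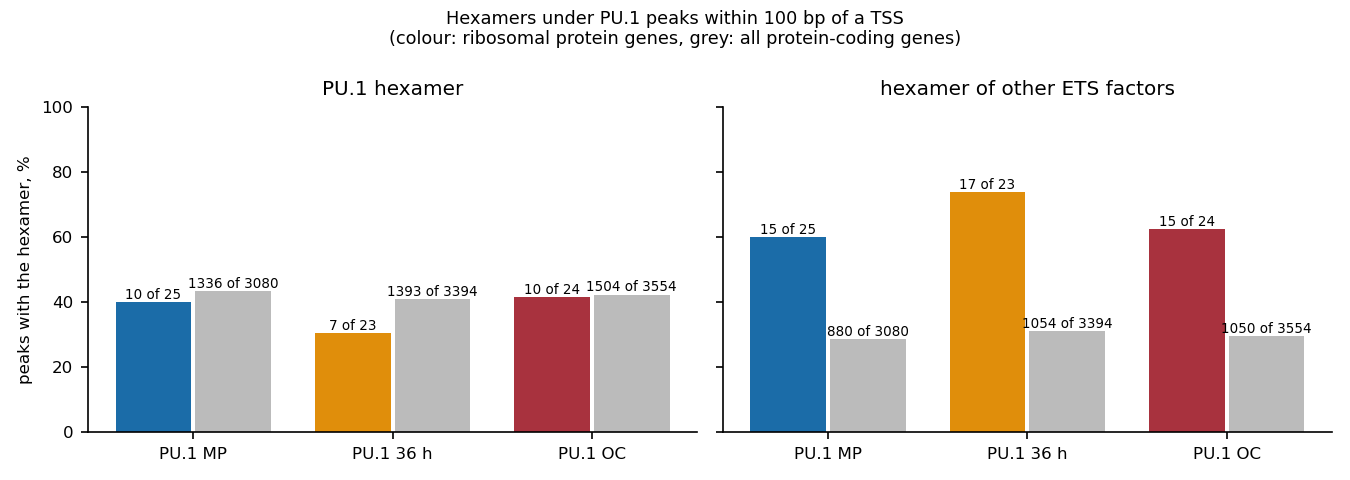
Share of PU.1 peaks within 100 bp of a TSS (vertical axis, %) that hold the PU.1 core hexamer (left) or the core hexamer of other ETS factors (right) within 100 bp of the peak centre, in the MP, 36 h and OC lists. Coloured bars are peaks of the ribosomal protein genes and grey bars those of all protein-coding genes, with counts above. The second hexamer is in 15 of 25, 17 of 23 and 15 of 24 member peaks.

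CCGGAA was also more frequent in the promoters of the members when peaks were left aside. CCGGAA lay within 100 bp of an annotated TSS of 25 of the 40 members (62.5%) and of 21.5% of all protein-coding genes. With the most upstream TSS only, the counts were 16 of 40 (40%) and 14.8% of all genes. GAGGAA lay within 100 bp of an annotated TSS of 20 members (50%) and of 35.3% of all genes, and within 100 bp of the most upstream TSS of 9 members (22.5%) and of 20.1% of all genes. Among the 25 members with CCGGAA, 18 had a PU.1 MP peak within 100 bp of a TSS (72%), and among the 15 without it 7 had one (46.7%). Over all genes these shares were 27.2% with CCGGAA and 9.98% without, so the members exceeded all genes on both sides of the split. In OC, 19 of the 25 members with CCGGAA had a TSS peak (76%) and 5 of the 15 without (33.3%), against 31.8% and 11.4% of all genes. The split by GAGGAA went the same way. In MP, 15 of the 20 members with GAGGAA had a TSS peak (75%) and 10 of the 20 without it (50%). Over all genes the MP shares were 22.5% and 8.89%. In OC the member counts were 14 (70%) and 10 (50%), against 25.3% and 10.6% of all genes.

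The promoter peaks below are shown as examples with CCGGAA before the first exon (Rpl8, not printed, also has it 20 bp before the TSS), with Rpl4 beside them as the reference gene with no match. The same 4 hexamers are in capitals, and each sequence is read along the strand of the gene.
Rpl27, whole peak (mm9, chr11:101303461-101303611, plus strand): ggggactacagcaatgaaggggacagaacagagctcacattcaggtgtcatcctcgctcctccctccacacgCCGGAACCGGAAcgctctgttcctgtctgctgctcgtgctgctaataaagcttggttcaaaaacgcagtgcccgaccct
Rpl32, whole peak (mm9, chr6:115758777-115758927, minus strand): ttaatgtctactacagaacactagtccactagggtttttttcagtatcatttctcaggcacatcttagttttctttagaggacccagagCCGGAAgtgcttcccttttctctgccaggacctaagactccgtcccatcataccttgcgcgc
Rps7, whole peak (mm9, chr12:29320841-29320991, minus strand): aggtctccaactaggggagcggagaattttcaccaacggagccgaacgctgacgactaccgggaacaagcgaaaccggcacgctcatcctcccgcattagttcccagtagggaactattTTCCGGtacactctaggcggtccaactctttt
Rps6, part of the peak before the first exon (mm9, chr4:86503317-86503400, minus strand): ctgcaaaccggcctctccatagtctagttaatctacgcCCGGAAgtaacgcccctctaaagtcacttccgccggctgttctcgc
Rpl37, part of the peak before the first exon (mm9, chr15:5066545-5066612, plus strand): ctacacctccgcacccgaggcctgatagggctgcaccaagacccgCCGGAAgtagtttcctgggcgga
Rpl4, part of the peak before the first exon (mm9, chr9:64021066-64021193, plus strand): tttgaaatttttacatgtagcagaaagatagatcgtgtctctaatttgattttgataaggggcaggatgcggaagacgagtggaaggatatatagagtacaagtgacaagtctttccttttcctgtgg
Rpl27 carries CCGGAA as a direct repeat, with its first bases 79 and 73 bp before the most upstream TSS. In Rpl32 the hexamer begins 73 bp before the TSS, and in Rps6, whose protein is phosphorylated by the S6 kinases downstream of mTOR, 46 bp before it. Rps7 and Rpl37 each hold it at 2 places within 100 bp of the TSS, of which 1 is in the stretch printed. The PU.1 scores at these TSSs were 25.6, 17.7 and 16.2 for Rpl32 and 27.3, 54.7 and 38.2 for Rps6. Rpl37 scored 13.6, 13.3 and 17.6 at its TSS.

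The median score of member peaks with the PU.1 core was above that of peaks without it in each list, by differing amounts. In MP the 28 member peaks with GAGGAA anywhere within 5 kb of a TSS had a median score of 27.3 and the 40 without it 17.1, close to the 27.3 and 20.5 of all peaks near protein-coding genes. At 36 h the medians were 28.1 for 28 peaks with it and 22.2 for 37 without, against 26.6 and 22.2. In OC the medians were 25 for 32 peaks with the hexamer and 22.75 for 36 without, against 26.4 and 22. At 36 h the order was the other way within 100 bp of a TSS, with 29.6 for 7 member peaks with GAGGAA and 31.05 for 16 without.

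MITF was found at few of these genes, as at few protein-coding genes at large. Within 5 kb of a TSS, 2 of the 40 members had a MITF peak in MP (5%), beside 6.58% of all protein-coding genes. The count was 4 at 36 h (10%), beside 4.28%, and 3 in OC (7.5%), beside 5.2%. Each gene more or less moves such a share by 2.5 points. All of the member MITF peaks overlapped a PU.1 peak, and 0 overlapped an IgG peak. The members were Rps9 and Rpl18 in each list, Rps18 at 36 h and in OC, and Rps3 at 36 h, and their MITF scores have been given with their PU.1 scores. None of the MITF peaks held CACGTG or CATGTG within 100 bp of its centre, and those of Rps9, Rps18 and Rps3 held GAGGAA. Of all MITF peaks near protein-coding genes, CACGTG was in 2.82%, 3.49% and 2.69% in MP, at 36 h and in OC, CATGTG in 14.4%, 14.4% and 12.8%, and GAGGAA in 70.5%, 70% and 71.8%.

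Over the stages, no PU.1 peak pair of the ribosomal protein genes passed the test of a change. Tags of overlapping peaks of 2 libraries were compared by an exact two-sided binomial test in which the expected ratio was the median over every pair of those libraries. Values of p were adjusted by Benjamini and Hochberg's method over the whole set, and a call needed both an adjusted p under 0.05 and a change of 2-fold or more. The test covers sampling noise and compares 2 libraries, not 2 conditions. Between OC and MP, 0 of 59 member pairs were called, beside 0.156% of all 60099 pairs, and 0 had an unadjusted p under 0.05 (7.84% of all pairs did). The median log2 ratio of the member pairs was 0.02, with 31 higher and 28 lower in OC, and their SD was 0.43. Fisher's exact test on the tags called 0 as well.

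The largest differences between OC and MP among the members were in both directions and rested on few tags. The TSS peak of Rpl35, a large-subunit protein, had 6 tags in MP and 16 in OC, a log2 ratio of 1.22 (95% interval -0.21 to 2.86). The peak of Rpl6 at its TSS had 18 and 10 tags, a log2 ratio of -1.04 (-2.32 to 0.15). At Rpl12 the peak 3571 bp downstream had 8 and 18 tags (0.98, interval -0.30 to 2.39). Each of these intervals includes 0. Rpl19 (0.81), Rpl32 (-0.64), Rps23 (0.61), Rpl30 (0.57) and Rpl27 (0.53) followed by log2 ratio, with intervals that also included 0.

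At 36 h the member peaks stood somewhat higher than in MP, as did TSS peaks of other genes. Of 53 pairs between 36 h and MP, 36 were higher and 17 lower at 36 h relative to the median of all pairs, with a median log2 ratio of 0.33. Within 100 bp of a TSS the median was 0.60 for 18 member pairs, 15 of them higher, and 0.28 for the 2574 pairs of all protein-coding genes, of which 71.4% were higher. No member pair was called (0 of 53, beside 1.05% of all pairs), and Fisher's exact test called 0 as well. By the exact binomial test 9 of the 53 (17%) had an unadjusted p under 0.05, against 10.9% of all pairs.

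Single peaks over the stages serve as examples of these differences. The largest log2 ratio between 36 h and MP was 1.63 (95% interval 0.37 to 3.10). It was at the Rpl8 peak 4154 bp upstream, which was nearer to Commd5. The largest between OC and 36 h was -1.35 (-2.26 to -0.50), at the Rpl12 peak 1105 bp upstream, which was nearer to Lrsam1. Rps6 had 16 tags in MP, 37 at 36 h and 26 in OC, and the log2 ratio of 36 h to MP was 1.13 (95% interval 0.25 to 2.07). The TSS peak of Rps18 had 20, 43 and 21 tags, with a log2 ratio of 1.02 at 36 h to MP (0.23 to 1.87) and of -1.15 at OC to 36 h (-1.98 to -0.37). Rpl28 had 20, 40 and 21 tags, with log2 ratios of 0.92 (0.11 to 1.77) and -1.05 (-1.88 to -0.25). In Rps6, Rps18 and Rpl28, named here after their values were seen, 36 h was the highest of the 3 libraries. Rpl10a went the other way, with 30, 13 and 26 tags at its peak 294 bp upstream and a log2 ratio of -1.29 between 36 h and MP (-2.35 to -0.31). The smallest adjusted p of a member pair by the exact binomial test was 0.161 between 36 h and MP.

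From 36 h to OC the order was turned. Of 57 member pairs 19 were higher and 38 lower in OC, with a median log2 ratio of -0.23, and 0 were called, beside 0.0707% of all pairs. An unadjusted p under 0.05 was found for 9 of the 57 (15.8%) by the exact binomial test, against 6.45% of all pairs, and Fisher's exact test called 0. Within 100 bp of a TSS the median was -0.34 for 21 member pairs and -0.12 for all genes. Both comparisons share the 36 h library, whose peaks were wider than those of MP and OC, and the part of peak width in these differences was not tested. For MITF, 0 of 2 member pairs were called between 36 h and MP (beside 15.2% of all pairs), 0 of 3 between OC and 36 h (beside 9.66%) and 0 of 2 between OC and MP (beside 0%), and 0 of these had an unadjusted p under 0.05 by the exact binomial test. Fisher's exact test called 1 of the 3 between OC and 36 h, where it called 38.2% of all pairs.

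**Figure D5:**
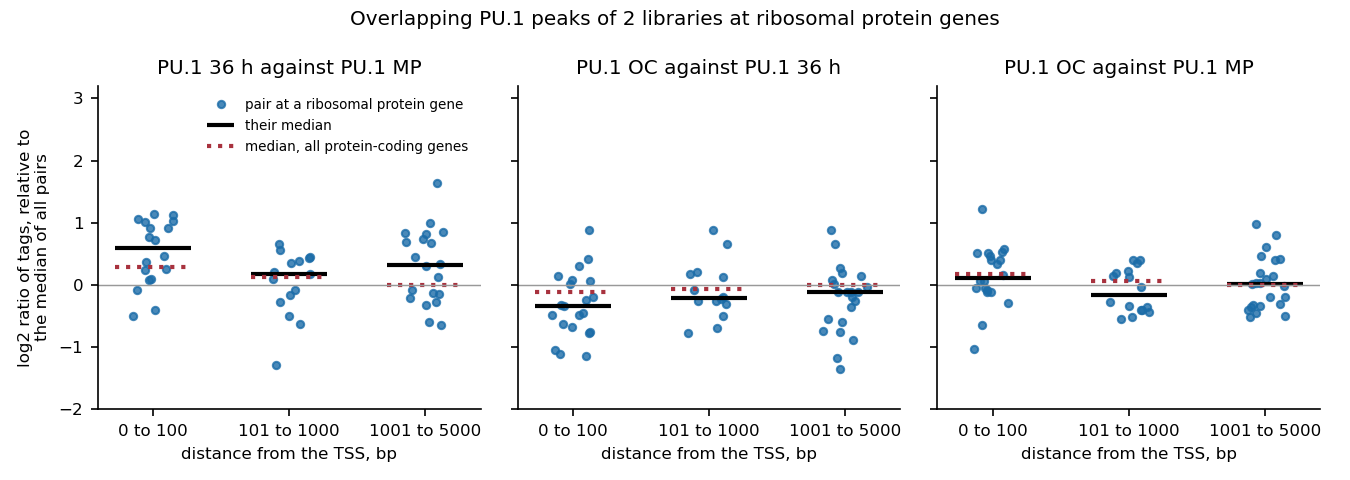
Log2 ratio of tags of overlapping PU.1 peaks of 2 libraries at ribosomal protein genes, relative to the median ratio of all pairs (vertical axis), by distance of the peak from the nearest TSS of the gene (horizontal axis, bp). Points are peak pairs, black lines their medians and dotted red lines the medians over all protein-coding genes. Within 100 bp of a TSS the member medians are 0.60 for 36 h against MP, -0.34 for OC against 36 h and 0.11 for OC against MP.

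Other genes of protein synthesis also carried PU.1 in higher shares than all protein-coding genes. Of all genes, 54.3% in MP, 55% at 36 h and 55.4% in OC had a PU.1 peak within 5 kb. Within 100 bp of a TSS the shares of all genes were 13.7%, 15.2% and 15.8%. Of 41 further cytosolic ribosomal protein genes, 36 had a PU.1 peak within 5 kb in MP, 41 at 36 h and 36 in OC, and 21, 22 and 22 had one within 100 bp of a TSS (51.2%, 53.7% and 53.7%). Of 77 mitochondrial ribosomal protein genes, whose products form the separate ribosome of mitochondria, 59, 65 and 68 had a peak within 5 kb and 19, 28 and 30 within 100 bp (24.7%, 36.4% and 39%). Among 33 translation factor genes the counts within 5 kb were 28, 28 and 29, and within 100 bp 10, 11 and 12 (30.3%, 33.3% and 36.4%). Among 30 genes of ribosome assembly they were 22, 21 and 23, and within 100 bp 11, 11 and 10 (36.7%, 36.7% and 33.3%). Of these lists of protein synthesis genes, the cytosolic ribosomal proteins had the highest shares with a TSS peak in each of the 3 PU.1 libraries, while 11 of the 14 myeloid markers had one. The median highest score of the further cytosolic genes was 23.05 in MP, below the 27.3 of the members, and the myeloid marker genes stood at 131.3.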

How the data were processed

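The authors mapped reads with Bowtie2 to mm9 and called peaks with HOMER, per the labels and the study's methods. CASAVA 1.8 is named in the submitters' processing notes. Versions of the other tools, the settings of peak calling and the treatment of reads that map to ribosomal protein pseudogenes are not given in the sources used here. The deposited value is HOMER's Peak Score, a score of tags per peak scaled to a common library size, assumed to be 10000000 tags. Within a list every score was an integer multiple of the worth of 1 tag (largest deviation 0.0501), which gave the tags per peak and a library size from 3120000 (IgG) to 10270000 tags (MITF 36 h). No reads were used.

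The 40 members and the other gene lists were chosen with earlier results of these data known. Peak centres were assigned to all GENCODE M1 TSSs within 5 kb on mm9, and shares were compared with all protein-coding genes without a set test. Named were Rpl4, the 10 members with the highest PU.1 score (11 with a tie), all members with a MITF peak, the 8 with the largest MP to OC change, and those missing from a PU.1 list. Others were named after their values were seen. Rpl41 and Noc2l of the other lists were not found in the annotation by symbol. Overlapping peaks (at least 1 bp) were compared by the exact binomial test on tags. On simulated MP and OC tags, 200 of 200 pairs with a 4-fold change and 4 of 59899 unchanged pairs were called. The changed pairs were taken only from peaks with many tags. Member pairs of MP and OC had a median of 29 tags over both libraries. The simulation therefore does not show how often a change at such peaks, or one near 2-fold, would be called. Sequences came from the NCBIM37 (mm9) genome, and untranslated parts were not printed. Python 3.11.15, numpy 2.4.6, scipy 1.17.1 and matplotlib 3.10.9 were used.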

Additional observations from a re-analysis of the deposited data

How the results depend on the processing

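The counts of genes with a PU.1 peak stayed within 1.5 times in 27 of 30 alternatives and those with a MITF peak in 21 of 30. Of these, a limit of 2 times the lowest score left 26 members with a PU.1 peak in MP, 27 at 36 h and 28 in OC. The shares of all genes were then 38.8%, 38.7% and 40%. Within 100 bp of a TSS, an alternative chosen after seeing the data, the PU.1 counts were 25, 23 and 24 for MP, 36 h and OC, and the MITF counts 0, 1 and 0. Within 1 kb the MITF counts were 1, 2 and 1 of the 40 members, beside 2.39%, 1.44% and 1.85% of all genes. The median MITF score at 36 h within 1 kb was 20.4, against 22.4 over all genes. Within 10 kb the MITF count in MP was 4 of 40, beside 10% of all genes. With scores of at least 2 times the lowest, MITF was at 1 gene in MP and at 1 in OC, beside 1.58% and 1.19% of all genes. A 2-fold change with no test gave 7 of 53 member pairs for PU.1 36 h against MP, beside 7.4% of all pairs. It gave 5 of 57 for OC against 36 h, beside 4.62%, and 2 of 59 for OC against MP, beside 5.37%. For MITF OC against 36 h, 1 pair was called with the ratio of library sizes and 1 with Fisher's exact test. Either setting called 38.2% of all pairs of these 2 libraries. The median ratio of all PU.1 pairs differed from the ratio of library sizes by -0.12 (36 h to MP), 0.11 (OC to 36 h) and -0.02 (OC to MP) on the log2 scale, and by 0.70, -0.85 and -0.10 for MITF. No paired analysis was possible because each condition has 1 library. The cause of these shifts was not tested. The lists hold only sites of at least 6 tags in PU.1 MP and 7 in PU.1 36 h and OC. For MITF the lowest were 9 in MP, 10 at 36 h and 8 in OC. A change at a weak promoter peak could not be resolved.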
